A study of Mus musculus with 663 samples.

Results

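Lin28a, Lin28b, Hmga1, Hmga2, Igf2bp1, Igf2bp2 and Igf2bp3 encode RNA-binding and chromatin proteins of embryonic cells, and were followed as 7 named rows among 43320 gene names. They were chosen by name, for their ties to the heterochronic pathway that was worked out in Caenorhabditis elegans. The levels come from single-cell RNA-seq of gonad cells from XX mice that carry the NR5A1-eGFP transgene on a mixed background, a reporter of the nuclear receptor of somatic gonad and adrenal cells. Live eGFP-positive cells were sorted and captured one by one on microfluidic chips (C1, Fluidigm), and the polyA RNA of each was amplified as full-length cDNA. All groups share this labelled genotype and this sort, and are labelled by age: E10.5 (E for embryonic day) with 71 cells in 1 capture, E11.5 with 106 cells in 2 captures, E12.5 with 53, 53 and 57 cells in 3 captures, E13.5 with 106 cells in 2, E16.5 with 95 cells in 2, and postnatal day 6 (P6) with 121 cells in 2. A capture is 1 chip loading and is the replicate. The labels do not say which litters or animals gave each capture, so the spread that p-values measure, between captures, may be technical. Cells without the reporter were not collected, so each level below is that of NR5A1-eGFP-positive cells and not of the whole gonad.

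LIN28A and LIN28B bind the precursors of let-7 microRNAs and block their maturation. Mature let-7 in turn lowers transcripts that hold its seed match, among them the Lin28, Hmga2 and Igf2bp transcripts, so the proteins and the microRNA oppose each other as embryonic tissues mature. HMGA1 and HMGA2 are AT-hook proteins that bind the minor groove of DNA and alter chromatin in proliferating embryonic cells, and IGF2BP1, IGF2BP2 and IGF2BP3 bind transcripts such as Igf2 and affect their stability, transport and translation. In mice, Lin28 genes are also known for their part in primordial germ cells and in the timing of puberty.

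The let-7 family is shown first because its seed is what links the 7 genes. Mature sequences named let-7a-5p to let-7i-5p and miR-98-5p were chosen by name from RefSeq (GRCm38.p6), and forms with other names were left out. They gave 11 mouse loci with 9 distinct mature sequences. All 9 carry the same seed, bases 2 to 8, in capitals here, so they form 1 seed group. The mature microRNAs were not measured in these libraries. Among those printed, let-7a lies on chr13:48538239-48538260 (minus strand) and let-7g on chr9:106178846-106178867 (plus strand).
let-7a: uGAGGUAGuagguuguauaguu
let-7b: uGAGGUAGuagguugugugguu
let-7d: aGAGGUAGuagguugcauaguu
let-7g: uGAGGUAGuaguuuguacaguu
miR-98: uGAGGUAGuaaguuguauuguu

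A search of annotated 3′ UTRs for the 7-letter match to this seed, CTACCTC on the sense strand, found at least 1 in all 7 genes. The same letters stood in 1852 of 20854 genes with a 3′ UTR, which is 8.88%, at a median 3′ UTR of 945 bases. Hmga2 had 4 matches in 3014 bases, Lin28b 4 in 4445 bases, Igf2bp1 4 in 6337 bases, and Lin28a 2 in 2775 bases. Hmga1 had 1 match in 1178 bases, Igf2bp2 1 in 1784 bases and Igf2bp3 1 in 2119 bases. Long 3′ UTRs hold a match more often: among genes whose 3′ UTR was 0.8 to 1.25 times as long, the share with a match was 8.20% for Hmga1, 14.8% for Lin28a, 16.3% for Hmga2 and 34.1% for Igf2bp1. At least 4 matches were found in 12 genes, which is 0.0575%, and 3 of those are Lin28b, Hmga2 and Igf2bp1. The genes are known as let-7 targets, so the presence of a match is part of why they stand together and is no separate result. A match is a string of letters and not a measured binding site. For each gene the first match followed by A was chosen for print, so the a after the capitals is by choice. In Lin28b and in Hmga2, 1 of the 4 matches was followed by A. Hmga1 had none, and its 1 match is printed. The chosen matches are given with flanks (GRCm38, sense strand, the match in capitals): Lin28a at chr4:134005189-134005210, Lin28b at chr10:45381022-45381043, Hmga1 at chr17:27563278-27563299, Hmga2 at chr10:120364224-120364245, Igf2bp1 at chr11:95961778-95961799, Igf2bp2 at chr16:22059473-22059494 and Igf2bp3 at chr6:49086787-49086808. Hmga1 is read from the plus strand and the other 6 from the minus strand.
Lin28a: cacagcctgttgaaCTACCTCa
Lin28b: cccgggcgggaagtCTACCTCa
Hmga1: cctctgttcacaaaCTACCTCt
Hmga2: ccgacattcaatttCTACCTCa
Igf2bp1: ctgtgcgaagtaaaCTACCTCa
Igf2bp2: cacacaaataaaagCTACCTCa
Igf2bp3: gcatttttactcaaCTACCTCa

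Depth and one capture that stands apart bear on every level below. Median depth per cell, estimated from the smallest steps in the values, was 1897000 to 3207000 reads in 11 captures and 148000 reads in E12.5 capture 2. Genes detected per cell had medians of 3640 to 7976 over the captures. E12.5 capture 2 also went against its label: 40 of its 53 cells held a transcript of at least 1 of 4 Y-linked genes, against at most 4 cells in any other capture, although all gonads are labelled XX. One read is worth 0.699 to 3.18 RPKM of these genes there, and 0.0322 to 0.248 RPKM elsewhere, so shares of cells above 0 are not comparable with that capture. Its values are given separately, and leaving it out changed no count of called members in the stage comparisons. A code in the library titles divides the captures into 2 sequencing series, the first with E10.5, E11.5, E13.5 and E12.5 captures 1 and 2, the second with E12.5 capture 3, E16.5 and P6, so stage and series are told apart through E12.5 alone. Somatic gonad markers (Nr5a1, Wt1, Gata4, Lhx9, Emx2, Cbx2) had means above 0 in every capture, with a summed level of 138.5 to 384 RPKM. Cbx2 was below 1 RPKM in E12.5 capture 1 (0.606 RPKM) and in both P6 captures (0.0285 and 0.0290 RPKM).

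Lin28a lies on chromosome 4 (134003330 to 134018841, minus strand, GRCm38) and kept the smallest share of its E10.5 level at E11.5 of the 7 genes. E10.5 was the first stage sampled, so when expression began is not known. Its mean level was 37.5 RPKM (reads per kilobase of transcript and per library size, a level per length) at E10.5, where 53 of 71 cells had a value above 0 and the highest cell had 486 RPKM. At E11.5 the capture means were 0.246 and 0.553 RPKM, and 1 cell held 97.8% of the first sum and 99.4% of the second. The E12.5 captures had 0.860, 0 and 0.0176 RPKM, and no cell of E13.5, E16.5 or P6 had a value above 0 (0 of 106, 0 of 95 and 0 of 121 cells). So the level at E10.5 lay far above all later captures, and detection after E11.5 rested on 3 cells. A count of 0 in a capture allows a share of cells of up to 4.55% to 7.50% at those stages, for counting error alone. E11.5 was lower than E10.5 by a log2 difference of -4.79 ± 0.42 on the log2(RPKM + 1) scale (± SE, limma, adjusted p = 0.00531), where 0.969% of 19710 tested genes were called. Lin28a, the single member called there, passed the filter of 1 RPKM through the E10.5 capture alone, so a lower level at E11.5 had to appear and the call is given as a description. E10.5 was 1 capture and took its error from the spread of other stages. With a pseudocount of 0.1 RPKM in place of 1 the limma adjusted p was 0.134, and a filter asking for 1 RPKM in 2 captures leaves Lin28a out and called 1 gene in all, in place of 191.

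Markers of other cell types were measured in the same captures. Of 7 nephric markers, 5 had a mean of at least 1 RPKM at E10.5 and the list summed to 93.7 RPKM, against 0.0669 to 27.3 RPKM in the other 11 captures, with Wnt9b and Cdh16 at 0 at E10.5. Lin28a had a mean of 45.97 RPKM in the 27 E10.5 cells with at least 2 nephric markers and 32.4 RPKM in the 44 without them, and 62.96% against 61.4% of cells reached 1 RPKM. Without the cells that had nephric markers the difference of E11.5 from E10.5 was -4.57 (limma, adjusted p = 0.00689). Of 12 germ cell markers, 2 reached 1 RPKM at E10.5, the summed level was 24.7 RPKM against 0.818 to 23.8 RPKM elsewhere, with 21.01 RPKM of it from Sall4, and Pou5f1, Dppa3, Prdm14, Tfap2c and Stra8 were at 0. The 10 E10.5 cells with at least 2 germ cell markers had a mean Lin28a of 36.9 RPKM, against 37.6 RPKM in the other 61 cells. Endothelial, red blood cell and macrophage markers were not highest at E10.5: they summed to 2.91, 1.045 and 6.51 RPKM there, and to as much as 14.3, 11.2 and 7.85 RPKM in another capture.

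Lin28b, the second Lin28 gene, on chromosome 10 (45376620 to 45486395, minus strand), was lower than Lin28a at E10.5 and was detected longer. Its mean was 9.83 RPKM at E10.5, with 41 of 71 cells above 0. Capture means were 4.39 and 1.53 RPKM at E11.5, 0.909, 1.99 and 1.97 RPKM at E12.5, and 0.0303 and 0.467 RPKM at E13.5. It was at 0 in all 95 cells of E16.5, and 1 of 121 cells at P6 had a value, of 0.118 RPKM. The share of cells above 0 was 20.8 ± 2.67% at E11.5 (SD, n = 2), 9.43% and 7.02% in E12.5 captures 1 and 3, 5.66% in the shallow E12.5 capture 2, and 3.77 ± 0% at E13.5 (n = 2), so few cells carried the means after E10.5. Both E13.5 captures lay below all E12.5 and E11.5 captures, while E12.5 and E11.5 overlapped. The differences did not pass the test: -1.55 ± 0.59 for E11.5 against E10.5 (limma, adjusted p = 0.840) and -1.59 ± 0.48 for E13.5 against E11.5 (adjusted p = 0.673).

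**Figure D1:**
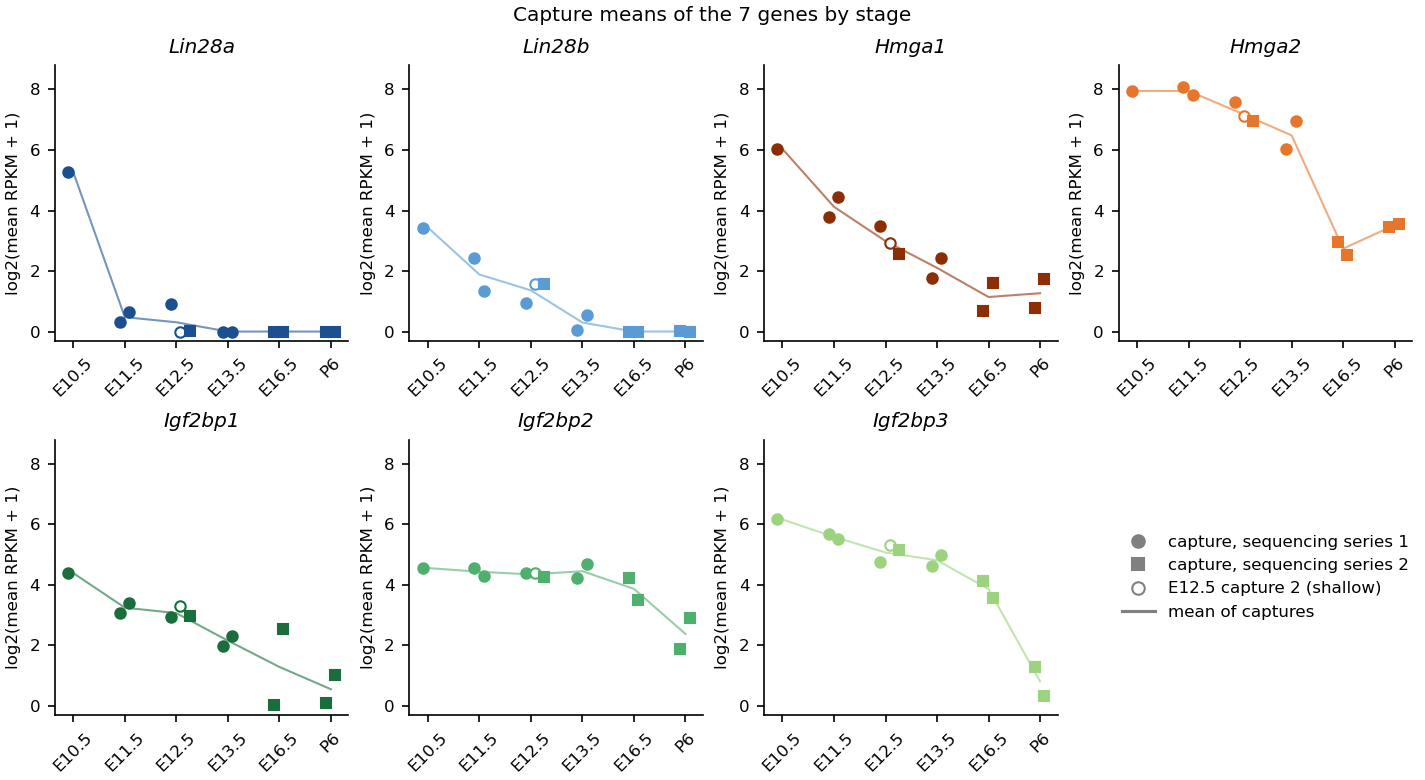
Level of each gene, as log2(mean RPKM + 1), in each capture (points) from E10.5 to P6, with circles for the first and squares for the second sequencing series, an open circle for E12.5 capture 2 and a line through the means of the captures. Lin28a is at 37.5 RPKM at E10.5 and at or below 0.860 RPKM in every later capture, Hmga2 stays at or above 63.7 RPKM until E13.5, and Igf2bp2 stays at or above 10.2 RPKM until E16.5.

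Hmga1 (chromosome 17, 27556497 to 27563674, plus strand) was lower at each stage than at the one before through E16.5. It was detected in all 71 cells at E10.5, with a mean of 64.5 RPKM, and the E11.5 captures had 12.9 and 20.9 RPKM. The E12.5 captures had 10.3, 6.54 and 4.86 RPKM and the E13.5 captures 2.43 and 4.40 RPKM. At E16.5 the means were 0.599 and 2.04 RPKM and at P6 0.731 and 2.35 RPKM. Every step from E10.5 to E16.5 had all later captures below all earlier ones, and E16.5 and P6 overlapped. Its E11.5 against E10.5 difference was -1.91 ± 0.71 (limma, adjusted p = 0.802) and its E13.5 against E11.5 difference -2.02 ± 0.58 (adjusted p = 0.613), neither past the threshold. Reads of Hmga1 can be shared with near-identical sequence, so its level is uncertain.

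Hmga2 (chromosome 10, 120361275 to 120476469, minus strand) had the highest level of the 7 genes from E10.5 to E13.5. Its capture means were 247 RPKM at E10.5, 273 and 223 RPKM at E11.5, 193, 137.7 and 124.1 RPKM at E12.5, and 63.7 and 122.5 RPKM at E13.5. At E16.5 they were 6.81 and 4.72 RPKM and at P6 10.0 and 10.9 RPKM. E10.5 lay between the 2 E11.5 captures, with a difference of E11.5 from E10.5 of -0.00 ± 0.46. From E11.5 to E16.5 each stage lay wholly below the one before it, and both P6 captures lay above both E16.5 captures. Within the second sequencing series alone the levels were 6.81 and 4.72 RPKM at E16.5, against 124.1 RPKM at E12.5. E16.5 differed from E13.5 by -3.35 ± 0.60 (limma, unadjusted p = 0.000772, adjusted p = 0.0940), and 0 of 7 genes were called there, where 0.528% of all tested genes were and 7.27% had an unadjusted p under 0.05. Over its alternatives that adjusted p ran from 0.0276 to 0.601, and it passed without E12.5 replicate 1 (0.0379), without E13.5 replicate 1 (0.0276) and with no filter on low values (0.0473). P6 differed from E16.5 by 0.78 ± 0.38 (limma, adjusted p = 0.646).

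The spread of Hmga2 within E12.5 and E13.5 followed the cell's markers. Cells were divided by 12 markers of supporting (pre-granulosa) cells and 12 of stromal cells, none of them a member, and a cell went to a class where 1 mean log2(RPKM + 1) score exceeded the other by more than 1. These classes are ranges of cells and not cell types. In E12.5 capture 1, 12 supporting-marker cells had a mean of 11.4 RPKM and 25 stromal-marker cells 365 RPKM. In E12.5 capture 3 the means were 22.8 RPKM in 23 supporting-marker cells and 232 RPKM in 26 stromal-marker cells. In E13.5 capture 1 they were 6.36 RPKM in 20 supporting-marker and 139.3 RPKM in 21 stromal-marker cells, and in E13.5 capture 2 they were 22.98 RPKM in 21 supporting-marker and 233 RPKM in 20 stromal-marker cells. Supporting-marker cells were thus lower in all 4 captures, the stromal-marker mean being 10.1 to 32.1 times as high. Single cells of the classes overlapped: in E13.5 capture 2 supporting-marker cells ran from 0 to 128.2 RPKM with a median of 7.32, and stromal-marker cells from 69.2 to 571 RPKM with a median of 193. E12.5 capture 2 had no supporting-marker cell. Across all cells of a capture, the Spearman rho of Hmga2 with the supporting minus the stromal score was -0.45 at E10.5, -0.47 and -0.56 in the E11.5 captures, -0.76, -0.33 and -0.71 at E12.5 and -0.59 and -0.78 at E13.5, -0.23 and 0.02 at E16.5, and 0.15 and -0.00 at P6.

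Over these 4 captures the difference was -3.93 ± 0.34 (limma with the capture as a term, adjusted p = 0.00167), a comparison chosen after seeing the data. Hmga2 was the 1 gene of 7 called, where 2.13% of 17609 tested genes were. Of 10 alternatives, 9 kept the call with differences from -4.87 to -2.89, and with no filter on low values the adjusted p was 0.108. The other 6 genes were not called: -1.29 ± 0.54 for Lin28b (limma, adjusted p = 0.312), -1.90 ± 0.74 for Hmga1 (0.281), -1.04 ± 0.34 for Igf2bp3 (0.198), -1.21 ± 0.73 for Igf2bp1 (0.508), -0.39 ± 0.42 for Lin28a (0.696) and 0.50 ± 0.49 for Igf2bp2 (0.672). Lin28b, Hmga1, Hmga2 and Igf2bp3 were lower in supporting-marker cells in all 4 captures, as were 11.9% of the tested genes. Lin28a and Lin28b passed the filter of 1 RPKM through stromal-marker cells alone, so their lower levels in supporting-marker cells are descriptions. Lin28b was at or below 0.00514 RPKM in supporting-marker cells of each capture, and 3, 2, 0 and 2 stromal-marker cells reached 1 RPKM. Igf2bp3 had 15.8, 19.5, 14.7 and 18.6 RPKM in supporting-marker cells of these captures, against 29.9, 51.5, 25.2 and 43.2 RPKM in stromal-marker cells.

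The 20-gene cell cycle score moved with the same division. Its mean, in log2(RPKM + 1), was 0.866, 0.996, 1.19 and 1.19 in supporting-marker cells of the 4 captures, against 1.86, 1.32, 2.29 and 2.63 in stromal-marker cells. Stromal-marker cells whose score was at or below the supporting-marker median had mean Hmga2 levels of 305 RPKM (5 cells), 238 RPKM (13 cells), 68.98 RPKM (4 cells) and 221 RPKM (7 cells). Across all cells of these captures the Spearman rho of Hmga2 with the cell cycle score was 0.25, 0.11, 0.44 and 0.35, and the part of the cell cycle in the class difference was not tested. Medians of detected genes were 6006, 5798, 7265 and 7019 in supporting-marker cells of E12.5 captures 1 and 3 and E13.5 captures 1 and 2, against 5732, 5144, 7124 and 6742 in stromal-marker cells, so supporting-marker cells had more detected genes in all 4.

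At E16.5 and P6 the division was not seen. Supporting-marker cells had Hmga2 means of 1.66 and 8.62 RPKM at E16.5 and 16.53 and 15.1 RPKM at P6, against 7.80 and 2.34 RPKM and 5.59 and 11.2 RPKM in stromal-marker cells. The supporting-marker mean was higher in 3 of these 4 captures, but the means rest on few cells. Class medians were at most 0.0482 RPKM, and 1, 3, 8 and 4 supporting-marker cells reached 5 RPKM, against 3, 3, 5 and 8 stromal-marker cells. The share at or above 1 RPKM was 5%, 21.4%, 42.9% and 40% in supporting-marker cells, against 25%, 25%, 19.2% and 25% in stromal-marker cells, so in E16.5 capture 2 the mean and the share ran opposite ways. The class difference at E12.5 and E13.5 was lower than that at E16.5 and P6 by -4.33 ± 0.78 (limma interaction, unadjusted p = 0.000138, adjusted p = 0.305), which did not pass, and 0% of 19439 tested genes passed while 6.55% had an unadjusted p under 0.05. Without E16.5 replicate 1 the adjusted p of this difference was 0.0383. Over E13.5, E16.5 and P6 together, the same comparison called 0 of 6 tested members, where 1.94% of 18582 genes were called, and none of the 6 had an unadjusted p under 0.05, against 14.7% of these genes. Hmga2 there differed by -0.99 ± 0.76 (limma, adjusted p = 0.601).

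**Figure D2:**
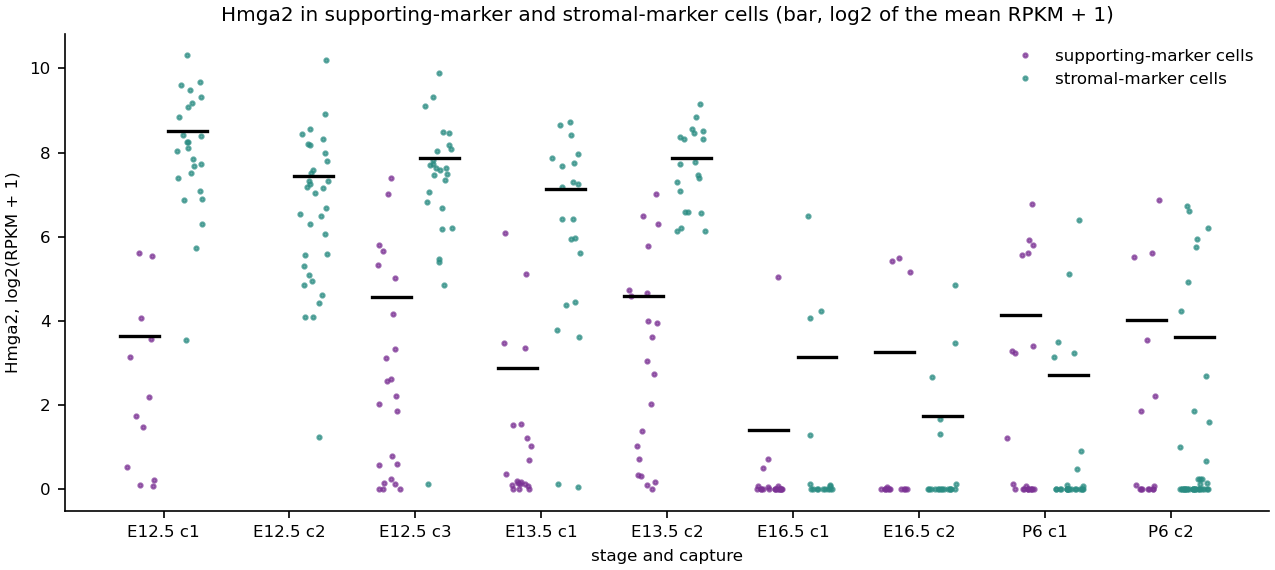
Hmga2 in single cells (points, log2(RPKM + 1)) of the supporting-marker class, left, and the stromal-marker class, right, for each capture from E12.5 to P6, with E12.5 capture 2 holding stromal-marker cells alone. Bars are log2 of the mean RPKM + 1, at means of 6.36 to 22.98 RPKM against 139.3 to 365 RPKM in the other E12.5 and the E13.5 captures, and 1.66 to 16.53 RPKM against 2.34 to 11.2 RPKM at E16.5 and P6.

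Supporting-marker cells numbered 2 and 0 of 53 in the E11.5 captures, 12 of 53, 0 of 53 and 23 of 57 in the E12.5 captures, and 20 and 21 of 53 in the E13.5 captures. Hmga2 capture means at these stages were 273 and 223 RPKM, then 193, 137.7 and 124.1 RPKM, and then 63.7 and 122.5 RPKM. E12.5 capture 2, with 137.7 RPKM and 0 such cells, is the shallow capture with Y-linked transcripts. In stromal-marker cells alone the capture means were 326 and 250 RPKM at E11.5, 365, 174 and 232 RPKM at E12.5, 139.3 and 233 RPKM at E13.5, and 7.80 and 2.34 RPKM at E16.5. In these cells E12.5 overlapped both E11.5 and E13.5, while both E13.5 captures lay below both E11.5 captures. E16.5 lay below all of them. Hmga1 in stromal-marker cells had 14.7 and 20.8 RPKM at E11.5, 14.3, 4.98 and 6.67 RPKM at E12.5, and 2.64 and 5.72 RPKM at E13.5, and was at 0 in all such cells of both E16.5 captures (16 and 20 cells). The part of the changing mixture of cells in the stage differences was not tested.

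Igf2bp1 (chromosome 11, 95957163 to 96005940, minus strand) had 19.9 RPKM at E10.5, with 70 of 71 cells above 0. The captures had 7.46 and 9.62 RPKM at E11.5, 6.60, 8.85 and 6.77 RPKM at E12.5, and 2.98 and 3.99 RPKM at E13.5. At E16.5 they had 0.0193 and 4.83 RPKM and at P6 0.0570 and 1.02 RPKM. The higher late capture owed 87.9% of its sum at P6 and 61.3% at E16.5 to 1 cell, and 8 of 121 cells at P6 and 10 of 95 cells at E16.5 had any value. E11.5 and E12.5 overlapped, E13.5 lay below both, and E16.5 spanned E13.5. No step of Igf2bp1 passed the test.

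Igf2bp2 (chromosome 16, 22059009 to 22163299, minus strand) stayed closest of the 7 genes to its E10.5 level from E12.5 to E16.5. Its capture means were 22.5 RPKM at E10.5, 22.6 and 18.7 RPKM at E11.5, 19.8, 19.9 and 18.2 RPKM at E12.5, and 17.6 and 24.7 RPKM at E13.5, all overlapping from E10.5 to E13.5. The E16.5 captures had 17.9 and 10.2 RPKM and the P6 captures 2.64 and 6.39 RPKM, with 62.2% of the sum of the second P6 capture in 1 cell. P6 lay below E16.5, with a difference of -1.49 ± 0.45 (limma, adjusted p = 0.340). The share of cells above 0 was 34.2 ± 5.57% at P6 and 61.5 ± 5.63% at E16.5 (SD, n = 2 each), and at E16.5 it was the highest of the 7 genes.

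Igf2bp3 (chromosome 6, 49085223 to 49214957, minus strand) was lower at P6 than at any other stage and was highest at E10.5. It had 70.4 RPKM at E10.5, 49.7 and 44.3 RPKM at E11.5, 25.7, 39.2 and 34.1 RPKM at E12.5, and 23.8 and 30.9 RPKM at E13.5. It had 16.6 and 10.9 RPKM at E16.5, and 1.45 and 0.254 RPKM at P6, when 13 of 121 cells had any value. E12.5 and E13.5 overlapped, and every other stage lay wholly below the one before it. The last step was the largest, with P6 differing from E16.5 by -3.05 ± 0.44 (limma, unadjusted p = 0.000195, adjusted p = 0.0541). No member was called in that comparison, where 0.289% of all tested genes were, and Igf2bp2 and Igf2bp3 had an unadjusted p under 0.05, against 8.95% of tested genes. Over its alternatives the adjusted p ran from 0.0202, without P6 replicate 1, to 0.433.

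**Figure D3:**
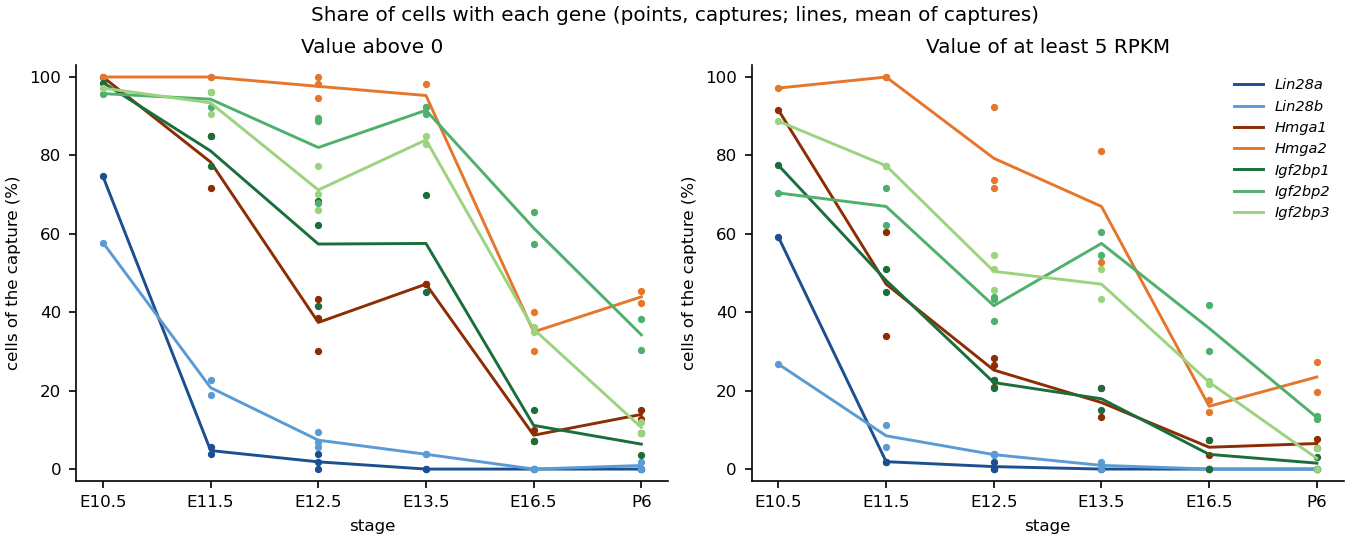
Percent of cells of a capture with a value above 0 (left) and of at least 5 RPKM (right) for each gene, E10.5 to P6; points are captures and lines join the means of captures. Lin28a is at 0% from E13.5 on, Hmga2 stays at 92.5% or more above 0 through E13.5, and Igf2bp2 keeps 57.5% or more above 0 at E16.5.

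Set side by side, the 7 genes had different time courses. As a percent of its own E10.5 mean, Lin28a stood at 1.07% and Lin28b at 30.1% at E11.5, when Hmga1 stood at 26.2%, Igf2bp1 at 42.96%, Igf2bp3 at 66.8%, Igf2bp2 at 91.9% and Hmga2 at 100.4%. At E13.5 Igf2bp2 stood at 94.1%, Igf2bp3 at 38.8%, Hmga2 at 37.7%, Igf2bp1 at 17.5%, Hmga1 at 5.29%, Lin28b at 2.53% and Lin28a at 0%. At E16.5 Igf2bp2 stood at 62.6%, Igf2bp3 at 19.6%, Igf2bp1 at 12.2%, Hmga2 at 2.34%, and Hmga1 at 2.05%. The E10.5 level in these percentages is that of 1 capture, and the order of neighbouring genes was not tested.

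Across all 12 captures, limma gave a negative slope over stage order for all 7 genes, as it did for 52.3% of the 19710 tested genes. The slopes were -0.71 ± 0.29 log2 units per stage for Lin28a, -0.76 ± 0.17 for Lin28b, -0.86 ± 0.20 for Hmga1, -0.82 ± 0.20 for Hmga2, -0.72 ± 0.21 for Igf2bp1, -0.29 ± 0.17 for Igf2bp2 and -0.89 ± 0.22 for Igf2bp3. None of the 7 passed the adjusted threshold (limma, adjusted p from 0.143 to 0.798), where 0.0609% of all tested genes did. In all, 6 had an unadjusted p under 0.05, all but Igf2bp2, against 6.88% of all tested genes. Lin28a is among them and passed the filter of 1 RPKM through the E10.5 capture alone. Its negative slope and unadjusted p are therefore descriptions. The trend shares its captures with the series term, and without that term 5 of the 7 were called and 399 genes in all. In the limma F test over all stages 3 of 7 were called, Lin28a (adjusted p = 0.0202), Hmga2 (0.0382) and Igf2bp3 (0.0492), where 1.37% of tested genes were called. Lin28a entered this test through the E10.5 capture alone, so its call is a description too. With the filter of 1 RPKM in 2 captures, 0 members and 15 genes in all were called, in place of 271. The F call of Lin28a was lost without the E10.5 capture (adjusted p = 0.785). That of Hmga2 was lost without either capture of E11.5, E16.5 or P6 (adjusted p = 0.0501 to 0.0598). That of Igf2bp3 was lost without the E10.5 capture, either capture of E11.5, E13.5 or E16.5, or P6 capture 2 (0.0557 to 0.0702).

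Between neighbouring stages, E12.5 against E11.5 and E13.5 against E12.5 gave 0 calls among the 7 and 0% of all tested genes, and no member had an unadjusted p under 0.05 in either, against 8.06% and 8.26% of tested genes. E13.5 against E11.5, which lie in 1 sequencing series, also gave 0 calls and 0% of tested genes, with Lin28b, Hmga1 and Hmga2 at an unadjusted p under 0.05, against 5.29% of tested genes. All captures of a stage lay below all of the stage before for 5 members at E11.5 (34.2% of tested genes), for 3 at E12.5 (12.8%), for 4 at E13.5 (7.98%), for 4 at E16.5 (23.2%) and for 2 at P6 (17%). The E13.5 captures lay below both E11.5 captures for 6 members, all but Igf2bp2, as they did for 18.2% of tested genes. Lin28a is counted in both the 5 at E11.5 and these 6. It passed the filter of 1 RPKM through the E10.5 capture alone, and 1 cell held 97.8% and 99.4% of its E11.5 sums. All 4 captures of E16.5 and P6 lay below all 7 captures of E11.5 to E13.5 for Lin28b, Hmga1, Hmga2 and Igf2bp3, which was so for 1.96% of tested genes.

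**Figure D4:**
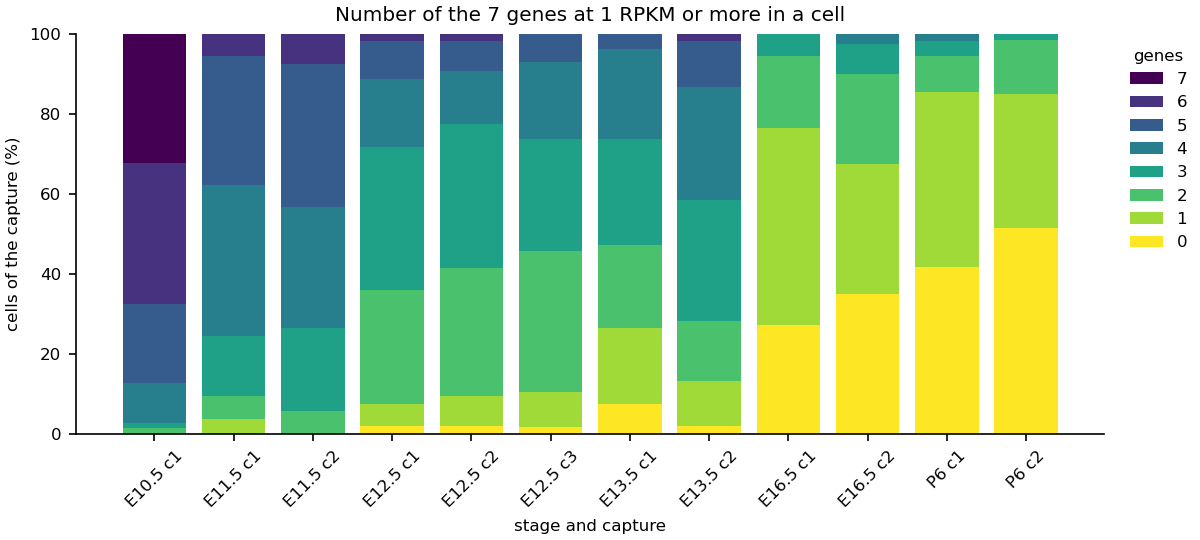
Percent of the cells of each capture (stacked bars, E10.5 to P6) that held 0 to 7 of the genes at 1 RPKM or more, from yellow for 0 to dark purple for 7. In the P6 captures 41.8% and 51.5% of cells held none, and at E10.5 87.3% of cells held 5 or more.

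Cells of E16.5 and P6 held fewer of the 7 genes than those of earlier stages, and within captures the genes' levels ranked only weakly with each other. A cell held on average 5.83 of the 7 at or above 1 RPKM at E10.5, 4.06 and 4.19 in the E11.5 captures, 2.96, 2.81 and 2.75 in the E12.5 captures and 2.49 and 3.13 in the E13.5 captures. The mean was 1.02 and 1.10 at E16.5 and 0.800 and 0.652 at P6. E12.5 and E13.5 overlapped. In E12.5 capture 2, 1 read is worth 0.699 to 3.18 RPKM of these genes, so the cut of 1 RPKM is not alike there. Median detected genes per cell were 7976 (E10.5), 6505 and 6973 (E11.5), 5747, 3869 and 5596 (E12.5), 7249 and 7018 (E13.5). Later captures had medians of 4870 and 4499 (E16.5), then 4998 and 3640 (P6), all below those of E10.5, E11.5 and E13.5. The part of this lower detection in the fall of members per cell was not tested. Lin28a and Lin28b were both at or above 1 RPKM in 26 of 71 E10.5 cells, where the product of their shares gives 21.1, and their Spearman rho was 0.32. Lin28a had a rho of 0.09 with Igf2bp3 and 0.32 to 0.40 with the other members over these cells. It also had a rho of 0.44 with the number of detected genes and 0.41 with the cell cycle score, which the cells share with every pair. Of the pairs with at least 8 captures in which each gene was at or above 1 RPKM in at least 10 cells, Hmga1 and Igf2bp1 had the highest median, 0.29 over 8 captures, and were above 0 in all 8. Pairs with Lin28a had 1 such capture, E10.5, with rho from 0.32 to 0.40 for Hmga1, Hmga2, Igf2bp1, Igf2bp2 and Lin28b, and 0.094 for Igf2bp3. Hmga2 and Igf2bp2 had a median rho of 0.01 over 12 captures, from -0.19 to 0.20. Over all pairs and captures with such cells, 75 of 99 values were above 0, between -0.33 and 0.47. Over the 8 captures of their pair, Hmga1 and Igf2bp1 had a median rho of 0.29 and 0.28 with the number of detected genes. With the cell cycle score it was 0.23 and 0.21, and all these values were above 0 in each capture. With counts this sparse these weak correlations are descriptions.

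Of the genes that process or destroy let-7, none of 18 tested was called over stage order, and 12 had a negative slope, with a median of -0.08 per stage against -0.01 for all tested genes and -0.76 for the 7 members. Xpo5, which exports microRNA precursors from the nucleus, had stage means of 19.03, 15.9, 11.01, 10.4, 9.03 and 5.24 RPKM from E10.5 to P6 (slope -0.54 ± 0.26, limma, adjusted p = 0.725). Its captures had 13.63, 1.295 and 18.11 RPKM at E12.5, the lowest being the shallow capture 2, and 9.94 and 0.545 RPKM at P6. Trim25, an RNA-binding ubiquitin ligase that aids LIN28A in uridylation of the let-7 precursor, had 0.344, 0.639, 2.70, 5.28, 9.43 and 5.31 RPKM (0.54 ± 0.26, adjusted p = 0.740). Its P6 captures had 0.781 and 9.84 RPKM. Of 3 host transcripts of let-7 clusters listed, 1 had a row in the table: Mir99ahg, host of let-7c, had 12.1 RPKM at P6 and 4.86 RPKM at E10.5 (slope 0.25 ± 0.15, adjusted p = 0.810).

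Other let-7 targets gave 0 calls among 23 tested, with 14 negative slopes and a median of -0.21. Igdcc3, a cell surface protein of the immunoglobulin family, had stage means of 27.9, 8.04, 6.495, 5.79, 2.26 and 0.870 RPKM from E10.5 to P6 (slope -0.61 ± 0.22, limma, adjusted p = 0.597). Arid3a, a DNA-binding protein, had 6.91, 5.07, 7.82, 0.665, 0.701 and 0.368 RPKM, with 17.8 RPKM in E12.5 capture 2 (-0.58 ± 0.23, adjusted p = 0.654). Trim71, the mouse counterpart of the worm heterochronic gene lin-41, was singled out after its values were seen: it had 15.9 RPKM at E10.5, 1.21 and 1.06 RPKM in the E11.5 captures, at most 1.32 RPKM in any later one and 0 at P6 (F test over stages, limma, adjusted p = 0.0808).

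Among 6 transcripts that IGF2BP proteins bind, 0 were called over stage order, the median slope was -0.11, and 1 was called in the F test. That one was Igf2, the fetal growth factor, with 131.7 RPKM at E10.5, 71.6 and 96.1 RPKM at E11.5, 63.3, 52.4 and 99.8 RPKM at E12.5, 67.3 and 71.7 RPKM at E13.5, 40.5 and 51.7 RPKM at E16.5 and 2.98 and 1.70 RPKM at P6 (limma F, adjusted p = 0.0146). Its P6 captures lay far below all others, as those of Igf2bp3 did. Cd44, the hyaluronan receptor, had stage means of 0.00149, 0.000338, 1.32, 11.9, 9.84 and 3.85 RPKM from E10.5 to P6 (slope 0.82 ± 0.32, limma, adjusted p = 0.649). Its P6 captures had 0.44 and 7.26 RPKM.

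Other HMG genes had a median slope of -0.18 over 7 tested with 0 called, and the cell cycle list -0.15 over 20 tested with 0 called. Hmgb1 had stage means of 75.1 RPKM at P6 and 292 RPKM at E10.5 (slope -0.32 ± 0.18, limma, adjusted p = 0.801), and Hmgb2 19.7 RPKM at P6 and 70.7 RPKM at E10.5 (-0.24 ± 0.16, adjusted p = 0.857). Both encode abundant chromatin proteins with paired HMG boxes. Rrm2, a subunit of ribonucleotide reductase, had 31.4 RPKM at P6 and 309 RPKM at E10.5 (-0.59 ± 0.28, adjusted p = 0.724), and Mcm2, of the replicative helicase, 10.48 RPKM at P6 and 46.8 RPKM at E10.5 (-0.45 ± 0.15, adjusted p = 0.568). The members' median slope lay below the median of every list, a comparison that was not tested.

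**Figure D5:**
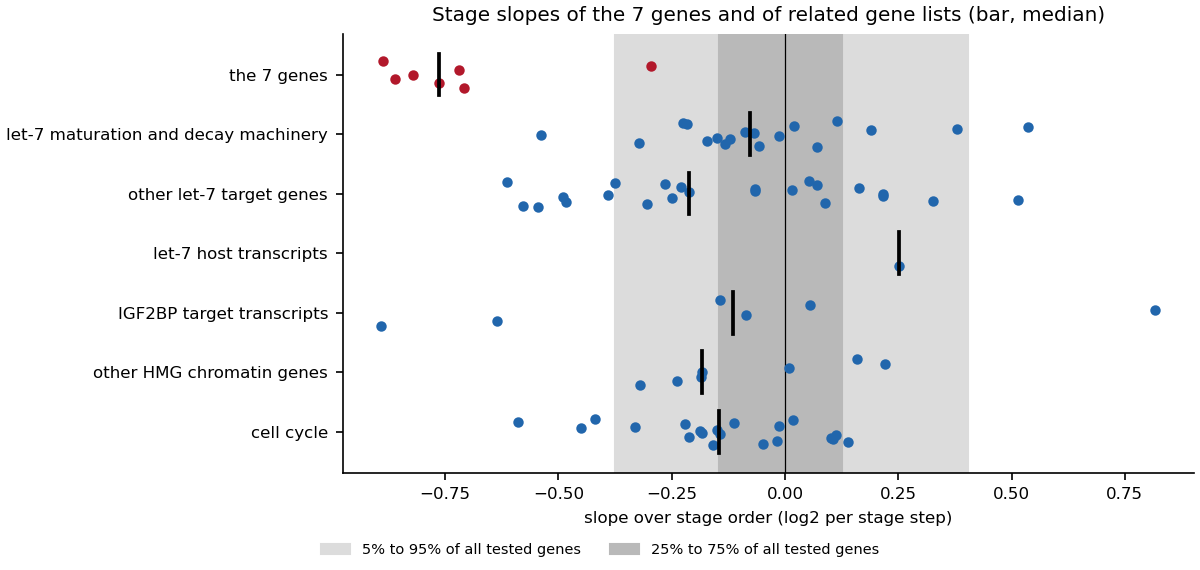
Slope over stage order (log2 units per stage step) of the 7 genes (red) and of each gene of the related lists (blue), with the median of each as a bar and grey bands for the middle 50% and the range from 5% to 95% of all tested genes. The 7 genes run from -0.89 to -0.29 around a median of -0.76, and the list medians lie between -0.21 and 0.25.

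The genes whose capture means ran most alike to each member over 12 captures, among 10670 genes, are given as descriptions, since all share the same captures. Lin28a ran most like Plch1, a phospholipase C (Pearson r = 0.91), and Ccnd1, cyclin D1 (0.86), whose mean was 16.1 RPKM at E11.5 and 155.1 RPKM at E10.5. Lin28b ran most like Actc1, cardiac actin (0.92), and Eme1 (0.92), and Hmga1 like Mex3a (0.94) and Hmgb3 (0.92). Hmga2 ran most like Npm1, nucleophosmin (0.95), and Hsp90ab1 (0.94), and Igf2bp1 like Mllt1 (0.93) and the histone chaperone Nasp (0.93). Igf2bp2 ran most like Copg2 (0.96) and Mest (0.92), which are neighbours in the mouse genome, and Igf2bp3 most like Mest (0.99) and the glycolytic enzyme Eno1 (0.97). Mest, an imprinted gene, had stage means of 512, 292, 260, 224, 140 and 31.1 RPKM from E10.5 to P6.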

How the data were processed

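Single-cell RNA-seq of 663 libraries was analysed as 662 cells, 1 cell sequenced a second time being averaged with its repeat (Pearson r of the 2 libraries 0.9956). The authors deposited 1 normalised value per gene and cell without naming the unit, read here as RPKM, that is per length and per library size. This reading is inferred: in the median cell 74.2% of low values are whole multiples of 1 read's worth within 0.03 (up to 6.5 reads), and levels between genes rest on it. The genome build was GRCm38.p3 (mm10), per the submitters' processing notes; which aligner and counter were used, and whether strand was, is not given in the sources used here. The extract protocol names no molecular identifiers. Of 43347 names, 27 turned into dates were left out.

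Cells were averaged per capture, and log2(mean RPKM + 1) was fitted with limma 3.58.1 (R 4.3.3, intensity trend) on genes with at least 1 RPKM in 1 capture, with stage and sequencing series as terms, two-sided, Benjamini-Hochberg over all tested genes, threshold 0.05. Class means were fitted with the capture as a term, for captures with at least 5 cells of both classes. The fits were tested on simulated data. Intervals for shares are exact binomial (95%), and a count of 0 is given the limit that 3 counts allow; both cover counting error only. Capture numbers follow accession order and pair nothing. Doublets were not called.

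Named genes are the 7 members, the 2 genes most alike to each among those with a mean log2 of at least 1, and of each list the called genes or else the 2 with the largest slopes; Trim71 was named after its values were seen. The members and lists were chosen with earlier results of these data known. The class comparison over E12.5 and E13.5, its interaction with stage, the fits without nephric-marker cells and the filter of 1 RPKM in 2 captures were added after seeing the data, as was 1 alternative for Hmga1 that is not reported here. Alternatives changed the pseudocount, the filter, the averaging, the scaling, the series term, the score gap and the captures. Let-7 sequences are RefSeq's (GRCm38.p6), and 3′ UTRs those of the longest complete coding transcript in GENCODE vM21.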

Additional observations from a re-analysis of the deposited data

How the results depend on the processing

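No paired analysis was possible because capture numbers were given in accession order and pair no captures between stages. The 28 single results ran under 550 alternative fits: 499 kept their side of the threshold, 28 lost the call and 23 gained it. Of these fits 0 reversed direction, which the F tests among them do not have. Counts of called members moved as follows. Averaging log values per cell called 3 over stage order (0 in the fit reported), 3 for E11.5 against E10.5 (1), 6 in the F test (3) and 1 for the class interaction (0). Over all genes, that setting called 17, 445 and 489 of 19710 in these stage tests and 6 of 19439 in the interaction. Without the series term 5 were called over stage order and 1 for P6 against E16.5 (0), and with days in place of stage order 1. These fits called 399, 65 and 72 of 19710 genes. A pseudocount of 0.1 called 0 for E11.5 against E10.5 and 1 in the F test, with 174 and 248 of 19710 genes called. No filter called 1 for E16.5 against E13.5 (0) and 0 for the E12.5 and E13.5 classes (1). Over all genes it called 568 of 27012 and 0 of 22707. A filter of 1 RPKM in 2 captures called 0 for E11.5 against E10.5, 1 for P6 against E16.5 and 0 in the F test. Of 16882 genes it called 1, 52 and 15. The first series alone called 0 and the second 1 in the F test. The class comparison restricted to E12.5 and E13.5 called 1, with 375 of 17609 genes called. Leaving out 1 capture gave 0 to 1 for E16.5 against E13.5, P6 against E16.5 and the interaction, and 1 to 3 for the F test. Of 37 member shares above 50% of cells, 24 remained above it at 5 RPKM. The causes were not tested, save that stricter filters and single series use fewer genes or captures. Over all genes, calls ran from 0 to 399 over stage order (12), from 1 to 1003 for E11.5 against E10.5 (191), 0 to 839 for E16.5 against E13.5 (0.528% of tested genes in the fit reported), 0 to 381 for P6 against E16.5 (57), 15 to 1509 in the F test (271), 0 to 1612, 0 to 1624 and 0 to 233 for E12.5 against E11.5, E13.5 against E12.5 and E13.5 against E11.5 (0 each), 0 to 1305 for the early classes (375), up to 1185 for E13.5, E16.5 and P6 (361) and 0 to 6 for the interaction (0). Without E12.5 replicate 3, E16.5 against E13.5 and the F test could not be estimated, nor E11.5 against E10.5 without E10.5. Values near 0 are limited by depth and by 40 to 71 cells a capture.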
